A study of Saccharomyces cerevisiae with 3 samples.

Results

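Near the left end of chromosome IV and the right end of chromosome X, the genome of Saccharomyces cerevisiae carries a pair of paralogous gene blocks. On chromosome IV the block runs inward from the end through MPH2 (YDL247W), SOR2 (YDL246C), HXT15 (YDL245C) and THI13 (YDL244W). On chromosome X it runs inward through MPH3 (YJR160C), SOR1 (YJR159W), HXT16 (YJR158W), YJR157W and THI11 (YJR156C). The genes were taken by their systematic names, and all 9 had a value in each of the 3 samples, out of 6123 open reading frames (ORFs) with complete values. They form 4 twin pairs, and YJR157W has no twin among them. The blocks were chosen by place, but with the measured log ratios of all 3 samples known and selected on those values, so their strain differences are given as a description without a test.

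The samples compared genomic DNA of 3 strains by array comparative genomic hybridisation, in which differently dyed DNA of a pair of strains competes for the same spots. R2 IVo is an intraspecific, artificial hybrid, and Sc1 and Sc2 are its parental strains 1 and 2. The samples are R2 IVo over Sc1, R2 IVo over Sc2, and the parents against each other as Sc1 over Sc2. Where 3 values stand together below, they follow that order. Per the labels, all material came from industrial cultivation and drying, and each sample combines duplicate arrays with exchanged dyes. Nothing in the labels used here says how the hybrid was made, how many isolates it stands for, or that separate cultures were used. Each pair of strains has 1 deposited value per ORF, so the spread between cultures is unknown.

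The genes of the blocks serve the uptake and use of unusual carbon sources and the synthesis of a vitamin. MPH2 and MPH3 encode permeases for maltose and related alpha-glucosides. HXT15 and HXT16 belong to the hexose transporter family and have been linked to the transport of sugar alcohols, and SOR1 and SOR2 encode sorbitol dehydrogenases, which oxidise sorbitol to fructose. THI11 and THI13 belong to the THI5 family, which makes the pyrimidine part of thiamine. YJR157W is a short ORF without an assigned role. Regions near chromosome ends are known to be gained, lost and exchanged among yeast strains more readily than chromosome interiors.

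Values are logarithms of hybridisation ratios, read as log2 and centred on the median of each sample, with the first-named strain as numerator. Neither the base nor the direction is stated with the values. If the common direction were the opposite, every sign below would turn, and folds hold only for base 2. A ratio reflects copy number, sequence divergence from the spotted probe, and DNA of similar genes that binds the same spot, and these cannot be told apart here. Twins are close paralogs, so a spot of one can also bind DNA of the other and the values of a pair are not independent. A fitted value combines the sample of a pair of strains with the path through the third strain, and its standard error (SE) comes from limma over all ORFs. The departure of the 3 samples from a closed triangle, which adds the hybrid over Sc1 to Sc1 over Sc2 and subtracts the hybrid over Sc2, is called closure. Its median size over all ORFs was 0.103 and its SD 0.188.

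The SOR, MPH and HXT genes and YJR157W were higher in Sc1 than in Sc2 by about 1.5 to 2.2-fold, while the THI genes at the inner edge of both blocks were near 0. The hybrid was at the level of Sc2 for the SOR and MPH genes and YJR157W. HXT15 was the exception, with the hybrid well above Sc2. Of the 9 genes, 7 passed limma's adjusted p under 0.05 as higher in Sc1 than in Sc2, where 0.523% of all ORFs did. Against Sc1, 5 passed as lower in the hybrid (background 0.343%), and against Sc2, 1 passed as higher in the hybrid (background 0.18%). None passed in the other direction in any comparison (background 1.45% lower in Sc1 than in Sc2, 0.327% higher in the hybrid than in Sc1 and 0.735% lower in the hybrid than in Sc2). These counts only describe how the blocks were chosen. The median fitted values of the 9 genes were −0.67, −0.015 and 0.67, against 0.003, 0 and 0.002 over all ORFs.

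**Figure D1:**
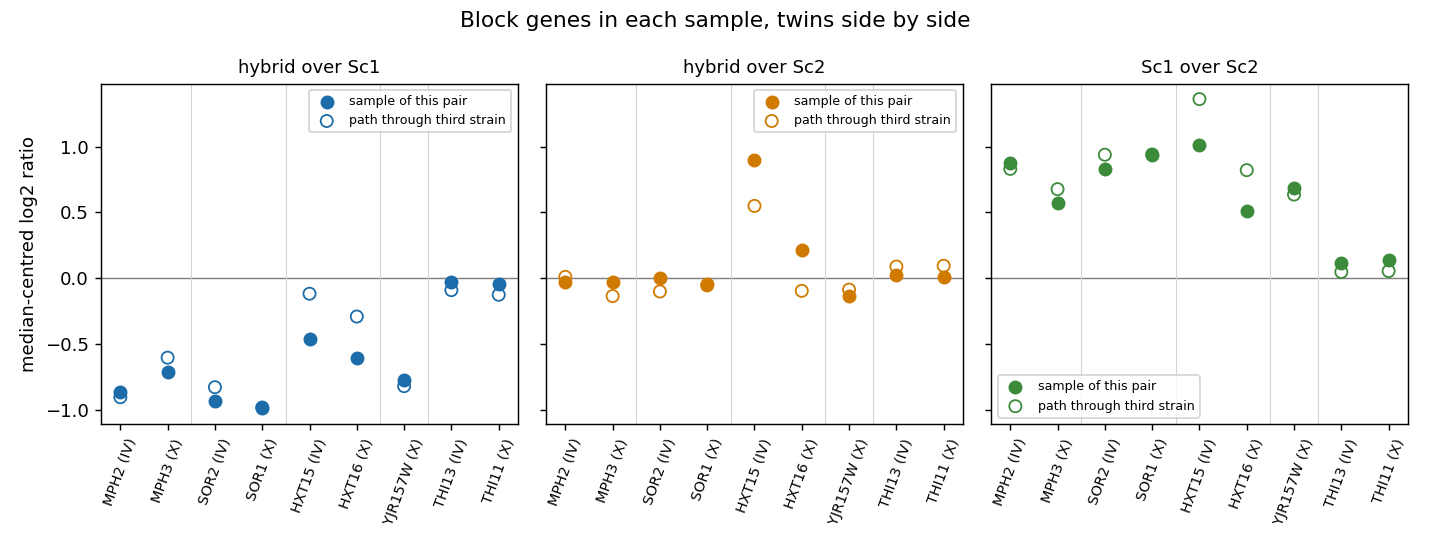
Median-centred log2 ratio (y axis) of the 9 block genes (x axis, twins side by side, chromosome in brackets) for each pair of strains; filled points are the sample of that pair and open points the path through the third strain. In the middle panel the filled points of 8 genes lie between −0.133 and 0.219 and HXT15 lies at 0.90.

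The sorbitol dehydrogenase genes had the lowest values against Sc1. SOR1 was at −0.99 in the hybrid over Sc1 sample, −0.046 in the hybrid over Sc2 sample and 0.93 in the Sc1 over Sc2 sample. SOR2 was at −0.93, 0.007 and 0.83. Both genes were thus high in Sc1 alone, and the hybrid and Sc2 lay close together. The fitted value of SOR1 for the hybrid over Sc1 was −0.98 ± 0.061 (SE, 3 samples), a 1.98-fold lower ratio, and that of SOR2 was −0.90 ± 0.064, or 1.86-fold. Few ORFs had a value as large in that sample: 15 of 6123 matched or passed the size of SOR1 and 17 that of SOR2. SOR1 also had a closure of −0.007, so its direct and indirect values were nearly the same (−0.986 and −0.979 for the hybrid over Sc1).

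The permease genes followed the same order of strains. MPH2 was at −0.86, −0.029 and 0.87 in the 3 samples. MPH3 was at −0.71, −0.029 and 0.57. In both, Sc1 stood above the other strains, and by less for MPH3. The fitted Sc1 over Sc2 values were 0.86 ± 0.062 for MPH2 and 0.61 ± 0.064 for MPH3, folds of 1.81 and 1.52. Against Sc2 the hybrid was at −0.015 ± 0.062 and −0.064 ± 0.064.

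The transporter genes parted from each other in the comparisons that involve Sc2. HXT15 was at −0.46 in the hybrid over Sc1 sample, 0.90 in the hybrid over Sc2 sample and 1.01 in the Sc1 over Sc2 sample. HXT16 was at −0.60, 0.22 and 0.51. HXT15 was therefore high in both the hybrid and Sc1 relative to Sc2, while the hybrid was nearer to Sc2 for HXT16. HXT15 had the highest fitted Sc1 over Sc2 value of the blocks, 1.13 ± 0.089 (2.19-fold), and was 0.78 ± 0.089 (1.72-fold) for the hybrid over Sc2. HXT16 was at 0.61 ± 0.085 and 0.12 ± 0.085 for the same pairs of strains. With limma's prior degrees of freedom set at 4, the calls of HXT15 for the hybrid over Sc2 and of HXT16 for Sc1 over Sc2 ended, and the other calls of block genes held. The Sc1 over Sc2 cell of HXT15 was deposited as the whole number 1026 and read as a value that had lost its decimal point. The path through the hybrid, which does not use that cell, gave 1.36. Both HXT15 and HXT16 closed less well than their neighbours, with closures of −0.35 and −0.31, sizes that 5.68% and 7.74% of all ORFs matched or passed.

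YJR157W, which lies between HXT16 and THI11, had the same order of strains as the SOR and MPH genes. It was at −0.77, −0.133 and 0.68 in the 3 samples. Its fitted values were −0.79 ± 0.062, −0.117 ± 0.062 and 0.67 ± 0.062, so Sc1 was above both other strains. It was the lowest of the 9 genes for the hybrid over Sc2.

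The thiamine genes did not share these differences. THI13 was at −0.024, 0.025 and 0.114 in the 3 samples, and THI11 was at −0.042, 0.014 and 0.138. Neither passed limma's threshold in any comparison, and their fitted Sc1 over Sc2 values were 0.092 ± 0.062 and 0.111 ± 0.063. A value as large as that of THI13 in the Sc1 over Sc2 sample was found in 27.1% of all ORFs.

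In order of the fitted Sc1 over Sc2 value, the genes ran from HXT15 through SOR1, SOR2, MPH2, YJR157W, HXT16 and MPH3 to THI11 and THI13. Most neighbours in that order lay within 2 SE of each other. The exceptions were MPH2 over YJR157W (0.19 ± 0.087) and MPH3 over THI11 (0.50 ± 0.090). Against Sc1 the order of the hybrid's values from low to high was SOR1, SOR2, MPH2, YJR157W, MPH3, HXT16, HXT15, THI11 and THI13, and the gap between HXT15 and THI11 (0.28 ± 0.109) was the one past 2 SE. Against Sc2 the one such gap separated HXT15 from HXT16. These SEs treat the errors of different genes as independent, which spots with similar sequence may not be.

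The place of the hybrid between its parents was taken from the hybrid samples only, with 1 for the level of Sc1 and 0 for that of Sc2, for genes whose Sc1 over Sc2 value was at least 0.5. On this scale SOR2 was at 0.007, MPH2 at −0.035, MPH3 at −0.043, SOR1 at −0.049 and YJR157W at −0.21. These 5 genes were at or near the level of Sc2, with YJR157W lowest. HXT16 was at 0.27 and HXT15 at 0.66, the latter nearer to Sc1. Each position rests on 1 value per sample. The places of HXT16 and HXT15 depend on the samples used. For the hybrid over Sc2, HXT16 was at 0.22 in the sample and −0.094 through Sc1, and HXT15 at 0.90 and 0.55.

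Each gene on chromosome IV was then set against its twin on chromosome X. The THI and SOR twins had nearly the same ratios in every pair of strains, while the HXT and MPH twins differed in some. The HXT pair had the widest difference in both comparisons with Sc2, and the MPH pair in the hybrid over Sc1. THI13 minus THI11 ranged from −0.018 to 0.024 over the 3 fitted comparisons, each with an SE of 0.089. SOR2 minus SOR1 ranged from −0.068 to 0.088, also with an SE of 0.089. All 6 of these differences were smaller than 1 SE.

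HXT15 exceeded HXT16 by 0.67 ± 0.12 for the hybrid over Sc2, a 1.59-fold difference between the twins. For Sc1 over Sc2 the excess was 0.52 ± 0.12, or 1.43-fold. In the remaining comparison, the hybrid over Sc1, it was 0.15 ± 0.12. The twins therefore parted in both comparisons that involve Sc2, and by 1.22 SE in the one that does not. The fitted comparisons form a closed triangle and are tied to each other. Their differences are therefore not separate observations. The difference for the hybrid over Sc2 was 0.68 in the sample itself and 0.64 through Sc1. For Sc1 over Sc2 the routes gave 0.51 and 0.54. In each comparison the routes can differ only by the difference between the closures of the twins (−0.35 and −0.31). The second pair of values is therefore no further check. An error shared by both spots would not show in this comparison of routes. The restored HXT15 cell enters the route through Sc1 and the Sc1 over Sc2 sample.

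MPH2 minus MPH3 was 0.25 ± 0.089 for Sc1 over Sc2, 2.82 times its SE. It was −0.20 ± 0.089 for the hybrid over Sc1, −2.27 times its SE. These fitted differences are tied by the triangle in the same way and are not separate observations. The routes were less alike here: 0.30 in the Sc1 over Sc2 sample and 0.154 through the hybrid. The MPH twins differed by 0.049 ± 0.089 for the hybrid over Sc2. Over the 4 pairs the median size of the twin difference was 0.119 for the hybrid over Sc1, 0.035 for the hybrid over Sc2 and 0.16 for Sc1 over Sc2.

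**Figure D2:**
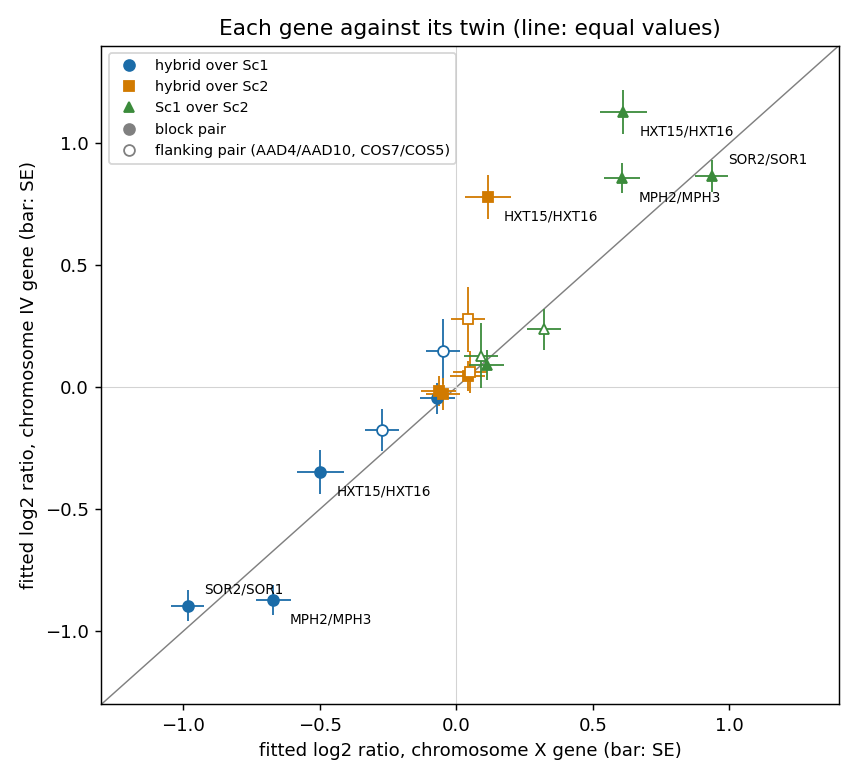
Fitted log2 ratio of each chromosome IV gene (y axis) against its chromosome X twin (x axis) for the 3 pairs of strains, with SE bars and a line of equal values; open symbols are the flanking pairs AAD4 with AAD10 and COS7 with COS5. HXT15 with HXT16 lies farthest above the line, by 0.67 for the hybrid over Sc2 and 0.52 for Sc1 over Sc2.

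The paralogy of the ends extends past both blocks. On chromosome X the differences in measured ratio between the strains did not reach the inner neighbour, and on chromosome IV that gene gave no clear reading. On the inner side lie the putative aryl-alcohol dehydrogenase genes AAD4 (chromosome IV) and AAD10 (chromosome X). AAD10 had fitted values of −0.048 ± 0.062, 0.042 ± 0.062 and 0.089 ± 0.062, close to THI11 beside it. AAD4 was at 0.148 ± 0.133, 0.28 ± 0.133 and 0.13 ± 0.133. AAD4 had a closure of −0.63, a size reached by 0.735% of ORFs, so its values are less certain than those of its neighbours. For Sc1 over Sc2 its sample gave −0.079 and the path through the hybrid 0.549. For the hybrid over Sc2 the sample gave 0.488 and the path through Sc1 −0.14. AAD4 therefore does not show whether the differences reach it. YDL242W, the next measured ORF inward, was at −0.050 ± 0.062, −0.003 ± 0.062 and 0.048 ± 0.062.

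At the inner edge the measured ratios changed in a step between adjacent genes on both arms. Steps at both edges are given as the outer gene minus the inner gene. The THI spots may bind DNA of other genes of the THI5 family. Their values near 0 therefore do not show where a difference between the strains ends. On chromosome IV the fitted Sc1 over Sc2 value fell from HXT15 to THI13 by 1.04 ± 0.109. On chromosome X the step lay between YJR157W and THI11, with a difference of 0.56 ± 0.089 for Sc1 over Sc2. For the hybrid over Sc1 the inner steps were −0.30 ± 0.109 on chromosome IV and −0.72 ± 0.089 on chromosome X. For the hybrid over Sc2 they were 0.735 ± 0.109 and −0.158 ± 0.089, the latter within 2 SE of 0. Inward of THI, THI13 minus AAD4 was −0.038 ± 0.147 and THI11 minus AAD10 was 0.021 ± 0.089 for Sc1 over Sc2.

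At the outer edge the values were also smaller. COS7 and COS5, the outer neighbours on chromosomes IV and X, belong to a family of subtelomeric membrane protein genes. COS5 was at −0.27 ± 0.063 for the hybrid over Sc1 and 0.32 ± 0.063 for Sc1 over Sc2, the same signs as MPH3 beside it at smaller size. COS7 was at −0.175 ± 0.086 and 0.24 ± 0.086. For the hybrid over Sc1, the outer step from MPH3 to COS5 was 0.40 ± 0.090 and that from MPH2 to COS7 was 0.70 ± 0.106, so on chromosome IV the outer step was the larger one and on chromosome X the inner one. For Sc1 over Sc2 the outer steps were −0.29 ± 0.090 and −0.62 ± 0.106, smaller than the inner step on both arms. Neither COS gene passed limma's threshold in any comparison. Beyond COS5, YJR162C had the opposite signs, 0.107 ± 0.062 for the hybrid over Sc1 and −0.27 ± 0.062 for Sc1 over Sc2, and was not called either.

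Farther inward, no other run of differing genes was seen among the 20 outermost measured ORFs of each arm. On the left arm of chromosome IV, the 16 ORFs outside the block had fitted values from −0.22 to 0.28 over the 3 comparisons and 0 were called by limma in any (2, 1 and 2 at an unadjusted p under 0.05). Of all 6123 ORFs, 489, 487 and 586 passed limma's unadjusted threshold in these comparisons. On the right arm of chromosome X, 1 of 15 was called, PGU1, the endopolygalacturonase gene, for the hybrid over Sc2 (−3.09 ± 0.31) and for Sc1 over Sc2 (−2.75 ± 0.31). With robust moderation PGU1 was not called in either, and at prior degrees of freedom of 4 it was not called for the hybrid over Sc2. Both of these PGU1 values rest on cells with a restored decimal point, and its closure of 1.63 was matched or passed in size by 0.049% of ORFs. PGU1 lies 3 measured ORFs inward of THI11 and differed in the opposite direction to the block, with YJR154W between PGU1 and AAD10 at 0.013 ± 0.062 for Sc1 over Sc2. The other 14 were between −0.27 and 0.32 in all 3 comparisons. At limma's unadjusted p under 0.05, 1, 2 and 4 of the 15 passed.

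**Figure D3:**
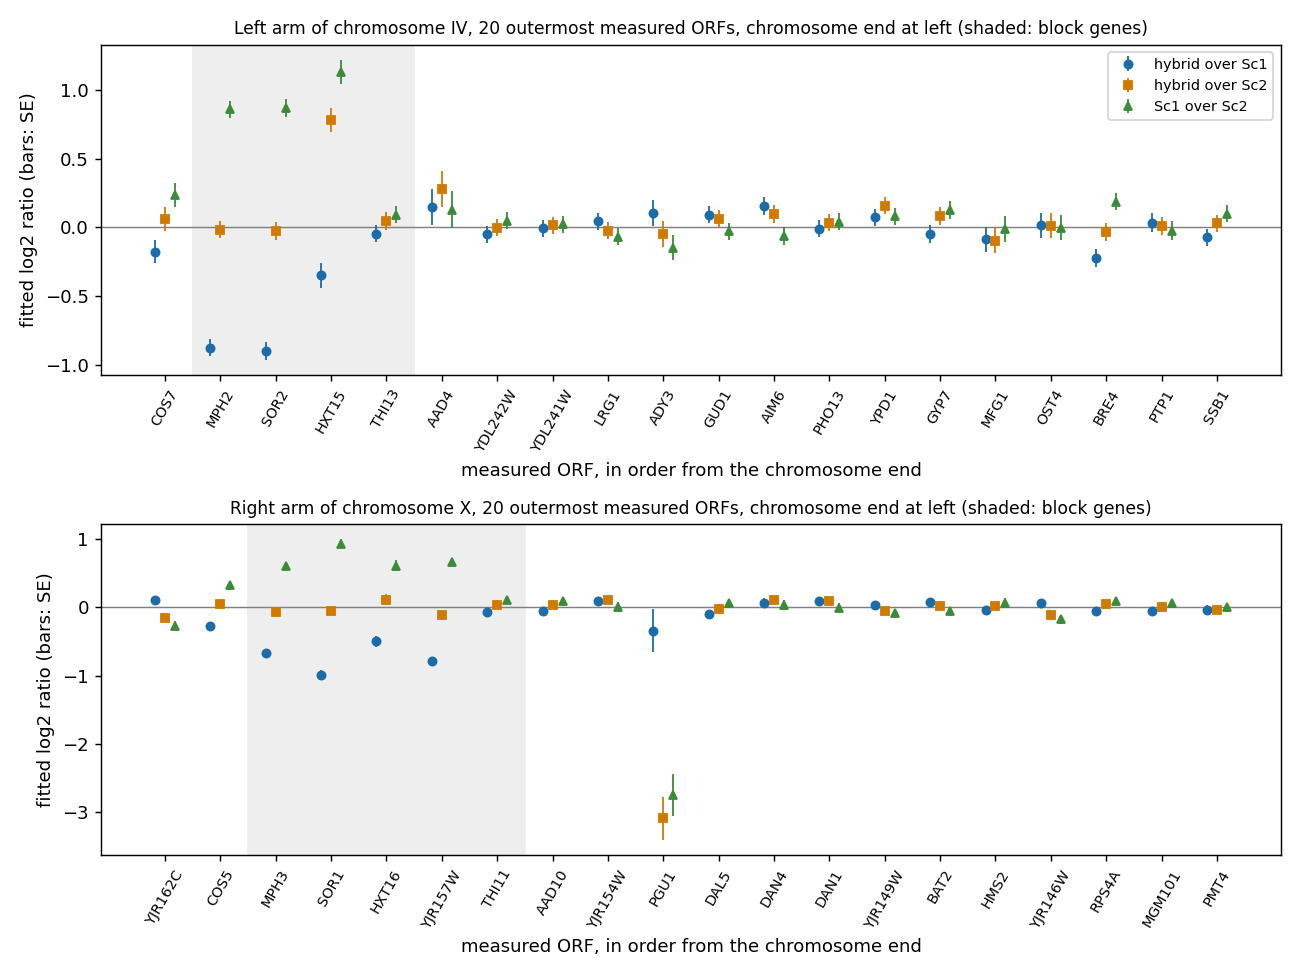
Fitted log2 ratio with SE (y axis) of the 20 outermost measured ORFs of the left arm of chromosome IV (top) and the right arm of chromosome X (bottom), in order from the chromosome end at the left (x axis), for the 3 pairs of strains; block genes are shaded. Sc1 over Sc2 is raised from MPH2 to HXT15 and from MPH3 to YJR157W and is near 0 at THI13 (0.092) and THI11 (0.111).

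Relatives of the block genes elsewhere in the genome differed in how far they followed the blocks. HXT13 on chromosome V and HXT17 on chromosome XIV are close relatives of HXT15 and HXT16, and each lies beside a gene of the mannitol dehydrogenase family, DSF1 (YEL070W) and MAN2 (YNR073C). For Sc1 over Sc2, HXT13 was at 0.45 ± 0.084, HXT17 at 0.18 ± 0.068, DSF1 at 0.35 ± 0.072 and MAN2 at 0.47 ± 0.076. MAN2 alone among these 4 passed limma's threshold, and it did not without centring, with centring on the mode, or at prior degrees of freedom of 4. All 4 HXT genes of this group thus had positive values for Sc1 over Sc2, from 0.184 to 1.13, with HXT15 highest.

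Set against Sc2, the hybrid's values for the relatives on chromosomes V and XIV were 0.32 ± 0.084 (HXT13), 0.16 ± 0.068 (HXT17), 0.34 ± 0.072 (DSF1) and 0.40 ± 0.076 (MAN2). None of them passed the threshold in that comparison. SOR1 and SOR2 were at −0.048 and −0.028 there, below DSF1 and MAN2. Against Sc1 the relatives were near 0, from −0.128 (HXT13) to −0.007 (DSF1), where SOR2 and SOR1 were at −0.90 and −0.98. Every fitted value of HXT13, HXT17, DSF1 and MAN2 thus had the sign of HXT15 (−0.35, 0.78 and 1.13), at smaller size. HXT15, HXT16, HXT13 and HXT17 shared a negative closure, from −0.35 to −0.158; over all ORFs 51.5% of closures were negative.

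The 4 genes of the THI5 family had similar ratios on their 4 chromosomes. For Sc1 over Sc2, THI5 on chromosome VI was at 0.010 ± 0.061 and THI12 on chromosome XIV at 0.136 ± 0.062, beside 0.092 and 0.111 for THI13 and THI11. The family ranged from −0.192 (THI12) to −0.046 (THI13) for the hybrid over Sc1. None was called. The family members are near-identical copies, so each spot may bind DNA of all 4, and values near 0 do not show that every copy is unchanged.

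**Figure D4:**
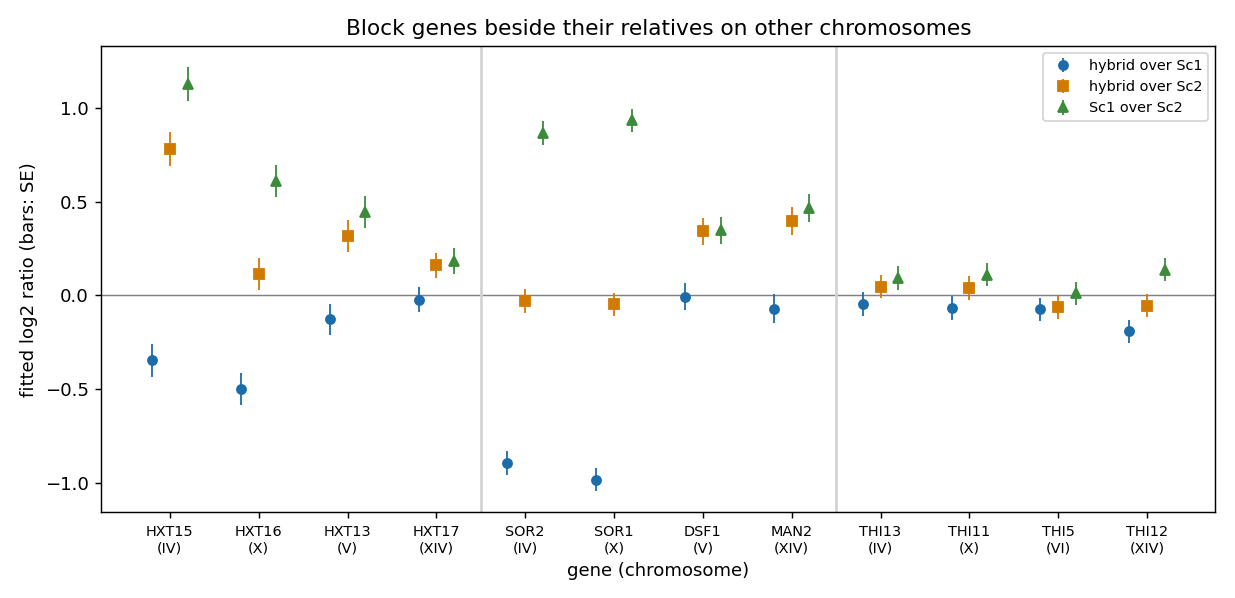
Fitted log2 ratio with SE (y axis) of block genes and their relatives on other chromosomes (x axis, chromosome in brackets) for the 3 pairs of strains. For the hybrid over Sc2, DSF1 (0.34) and MAN2 (0.40) lie above SOR2 and SOR1, which are near 0, and the 4 THI genes stay between −0.192 and 0.136 in every comparison.

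Other relatives of the permeases, dehydrogenases and AAD genes varied widely. MAL11, an alpha-glucoside permease gene on chromosome VII, was at −3.13 ± 0.16 for the hybrid over Sc1 and 2.98 ± 0.16 for Sc1 over Sc2, the same signs as MPH2 and MPH3 at far larger size. Both of these MAL11 values rest on cells with a restored decimal point. Its closure of −0.79 was matched or passed in size by 0.425% of ORFs. MAL31, the maltose permease gene on chromosome II, was at −0.102 ± 0.063 and 0.028 ± 0.063, so the MPH pattern was not shared by every permease of the family. XYL2, the xylitol dehydrogenase gene on chromosome XII and a relative of SOR1, was at 0.023 ± 0.066 and −0.074 ± 0.066. Of the AAD genes, AAD15 was called for the hybrid over Sc2 at 0.43 ± 0.063, a call that ended without centring, without ORFs with restored decimal points, and at prior degrees of freedom of 4. The others were not called: for Sc1 over Sc2, AAD14 was at 0.018, YFL057C (AAD16) at 0.21, AAD3 at 0.23 and AAD6 at 0.24.

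The block genes were also read beside the other genes of their pathways, in lists chosen with earlier results known. Of 17 genes of polyol and xylose use, 5 passed as higher and 1 as lower in Sc1 than in Sc2 (0.523% and 1.45% of all ORFs); outside the blocks these were MAN2 and the hexokinase gene HXK1 (−0.42 ± 0.071). In the same list 2 of 17 passed as lower in the hybrid than in Sc1, SOR1 and SOR2 (0.343% of all ORFs), and 1 as higher in the hybrid than in Sc2, HXT15 (0.18% of all ORFs). The 13 genes of the list outside the blocks had medians of −0.023, −0.024 and 0.03, against 0.003, 0 and 0.002 over all ORFs.

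Of 13 genes of alpha-glucoside transport and use, 5 passed as higher and 1 as lower in Sc1 than in Sc2, against 0.523% and 1.45% of all ORFs. MPH2 and MPH3 were among the 5, with MAL11, MAL13 and the isomaltase gene IMA1 (0.55 ± 0.061). IMA4 was the lower one. By their systematic names IMA1 (YGR287C), MAL13 (YGR288W) and MAL11 (YGR289C) are consecutive ORFs on chromosome VII, and MPH2 and MPH3 are twins. The 5 genes are therefore not independent, and their count does not show a difference across the pathway. The same 5 genes passed as lower in the hybrid than in Sc1 (0.343% of all ORFs), and IMA4 as higher (0.327%), in a comparison that shares the Sc1 DNA. By limma 0 passed for the hybrid over Sc2 (2 at an unadjusted p under 0.05, against 487 of all 6123 ORFs). Of 20 thiamine genes, 1 passed as higher in Sc1 than in Sc2 (0.523% of all ORFs), the pyridoxine gene SNZ3 (0.52 ± 0.085). In the comparisons with the hybrid 0 passed by limma. At limma's unadjusted p under 0.05, 5 of the 20 passed against Sc1 and 1 against Sc2. Of all 6123 ORFs, 489 and 487 did. The calls of SNZ3 and HXK1 ended without centring and at prior degrees of freedom of 4, and that of HXK1 also without ORFs with restored decimal points; the call of IMA1 for the hybrid over Sc1 ended at prior degrees of freedom of 4.

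The ORFs most like the blocks were found by the Euclidean distance over the 3 samples to the median profile of the 9 genes, which was −0.71, 0.007 and 0.68. The nearest 5 outside the blocks were AQY3 (distance 0.165), COS12 (0.166), IMA1 (0.197), AGP3 (0.235) and DAK2 (0.279). AQY3, AGP3 and DAK2 are neighbours on the left arm of chromosome VI, where THI5 also lies. AQY3 was at −0.55, 0.056 and 0.71 in the 3 samples. Within the blocks MPH3 was nearest to the median profile (0.118), and HXT15 (0.979), THI13 (0.889) and THI11 (0.86) were the farthest. AQY3, COS12, IMA1 and AGP3 lay nearer to it than MPH2 (0.246), SOR2 (0.269), HXT16 (0.295) and SOR1 (0.378) as well, so the profile was not particular to the blocks.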

How the data were processed

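Per the labels, DNA cut with Hinf I was dye-labelled and hybridised in pairs of strains on duplicate arrays with dye swap. The deposited score is a log ratio for each ORF that the authors had combined over these arrays. The sources used here name no scanner, background correction or normalisation, so signal over background is unknown and precision is limited by the few arrays. The 76 whole-number cells of at least 1000 in size were divided by 1000. Base 2 and the direction are readings of the values and titles. Of 6178 ORFs and 2 control spots, the 6123 ORFs with all 3 values were centred on the sample median and fitted as a triangle of strains in limma 3.58.1 (R 4.3.3, lmFit and eBayes), with 1 residual degree of freedom each, Benjamini-Hochberg adjustment over all ORFs and a threshold of 0.05. The fit was also run on simulated data with independent normal errors, which hold no binding between similar genes and no restored cells. Their variances were drawn from the prior that limma had fitted to these data, so that run is no check of the prior. The limma SE comes from the closure of the 3 samples and from limma's prior over all ORFs. Whether it holds more than array error is unknown, and it is not a measure of the spread between cultures. Symbols came from RefSeq assembly R64 for 5625 ORFs (8 of the 9 block genes), and gene order came from the systematic names. Coordinates and sequences are not used here. The named genes were the 9 block genes, the neighbours, a fixed set of relatives, the called genes of 3 pathway lists and the 5 most alike ORFs. Members and lists were chosen with earlier results of these data known. Tables were made with Python 3.11.15, pandas 2.3.3 and numpy 2.4.6.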

Additional observations from a re-analysis of the deposited data

How the results depend on the processing

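Alternatives were no centring, centring on the mode, leaving out ORFs with restored decimal points, robust moderation, prior degrees of freedom of 4, an unadjusted p, and the direct or the indirect values alone. The count of called ORFs went from 41 (hybrid over Sc1), 56 (hybrid over Sc2) and 121 (Sc1 over Sc2) to 15, 15 and 61 without ORFs with restored decimal points, to 489, 487 and 586 at an unadjusted p under 0.05, and, for the hybrid's comparisons, to 23 and 34 at prior degrees of freedom of 4. The 1 block gene called for the hybrid over Sc2, HXT15, was lost at prior degrees of freedom of 4 and is itself left out without restored ORFs, so the count was 0 in both. HXT16 lost its Sc1 over Sc2 call at prior degrees of freedom of 4. By the indirect path alone the median of the 9 genes was −0.601 for the hybrid over Sc1 and 0.821 for Sc1 over Sc2. Without restored ORFs, which removes the HXT pair, the median twin difference for Sc1 over Sc2 was 0.068. Estimates were altered by 5 alternatives: both centrings, ORFs with restored decimal points left out, and direct and indirect values. These gave 189 values of single genes and twin pairs. Of these, 168 moved by less than 1 SE, 21 moved by more and 0 changed sign beyond 2 SE. Both centrings and the leaving out of restored ORFs could hardly move a value. They shift all genes of a comparison by a small constant, which cancels in twin differences. All 21 were under the direct or indirect values alone. By the direct values 6 moved by more than 1 SE and 33 did not. By the indirect values 15 did and 24 did not. No paired analysis was possible because each pair of strains has 1 sample.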
